A study of Mus musculus with 40 samples.

Results

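Chemokines are small secreted or membrane-bound proteins that set the direction in which leukocytes move, and their receptors couple to G proteins of the inhibitory class on the responding cells. Atypical receptors bind chemokines without that coupling and take them out of the extracellular space. In the kidney, tubular, endothelial and stromal cells supply some ligands at rest, while resident macrophages and dendritic cells carry receptors such as CX3CR1 and CCR2. Members were taken by symbol: protein-coding mouse genes whose names begin with Ccl, Ccr, Cxcl, Cxcr or Ackr and a digit, with Cx3cl1, Cx3cr1, Xcl1 and Xcr1 added. The rule gave 60 genes of the 55359 gene identifiers measured, of which 37 code for ligands, 19 for signalling receptors and 4 for atypical receptors. Of these, 38 had enough counts to be tested (24 ligands, 11 signalling receptors and 3 atypical receptors).

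The RNA came from the right kidneys of 40 male C57BL/6 mice, 1 library per labelled animal. Mice were given sesame oil (vehicle) or 2,3,7,8-tetrachlorodibenzo-p-dioxin (TCDD), a long-lived agonist of the aryl hydrocarbon receptor (AHR), by oral gavage every 4 days over 28 days, from day 30 to day 58 of age. The 7 TCDD doses were 0.03, 0.1, 0.3, 1, 3, 10 and 30 µg/kg, and each of the 8 groups held 5 libraries. No allele or transgene is named in the labels. Every dose is set against the same 5 vehicle libraries, so the dose contrasts are not independent of each other. Levels are CPM, the count of a gene scaled to a fixed library total with adjustment for library composition, and folds are on the log2 scale unless given as "-fold". Adjusted p-values are from edgeR's quasi-likelihood test with Benjamini-Hochberg adjustment over all 17345 genes tested, and "called" means an adjusted p under 0.05.

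Gene counts summed to between 15278423 and 25575317 per library. Cyp1a1, the classical AHR target, was called from 0.3 µg/kg upward and was higher by 10.07 on the log2 scale at 30 µg/kg (SE 0.31, edgeR adjusted p = 2.58e-22). The 8 kidney epithelial markers (from Slc34a1 of the proximal tubule to Nphs1 of the podocyte) summed to 14130 ± 960 CPM in vehicle (SD, n = 5), so the labelled tissue was present. On the first principal component of log2 CPM (12.9% of the variance), replicates 2, 3, 4 and 5 at 30 µg/kg lay at -45.7, -67.2, -62 and -47.6. Replicate 1 at 30 µg/kg lay at -21.7, within the range of the 10 µg/kg libraries (-26.7 to -11.5). On the second component (6.67% of the variance), 30 µg/kg replicate 3 lay at 58.8. A pair of vehicle libraries, replicates 1 and 2, had scores of 34.7 and 34.9 on the second component. The remaining 37 libraries scored from -21.5 to 14.0 on it. Results are given without 30 µg/kg replicate 3, or without both vehicle libraries, where these differ. In bulk RNA, fewer or more cells of a type and less or more RNA per cell cannot be told apart.

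At rest the kidney's chemokine system was led by a scavenging receptor and 4 ligands. Compared per kilobase of annotated exon in vehicle, Ackr3, the atypical receptor that removes CXCL12, was highest at 22.3 CPM per kb. It was followed by Cx3cl1 (fractalkine, a membrane-anchored ligand) at 18.8, Cxcl12 at 14.9, Cxcl14 at 12.4 and Cxcl16 at 12.1 CPM per kb. Ccl21a and Ccl27a came next at 7.93 and 4.23 CPM per kb, with the limit that both have near-identical copies among which reads can be split or dropped. Other ligands lay far lower, among them Cxcl10 at 1.06, Ccl5 at 1.01, Cxcl9 at 0.653 and Ccl2 at 0.325 CPM per kb. Among the 11 tested signalling receptors, Cx3cr1 (1.09) and Cxcr4 (1.01) were highest and Ccr9 was lowest at 0.0346 CPM per kb.

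**Figure D1:**
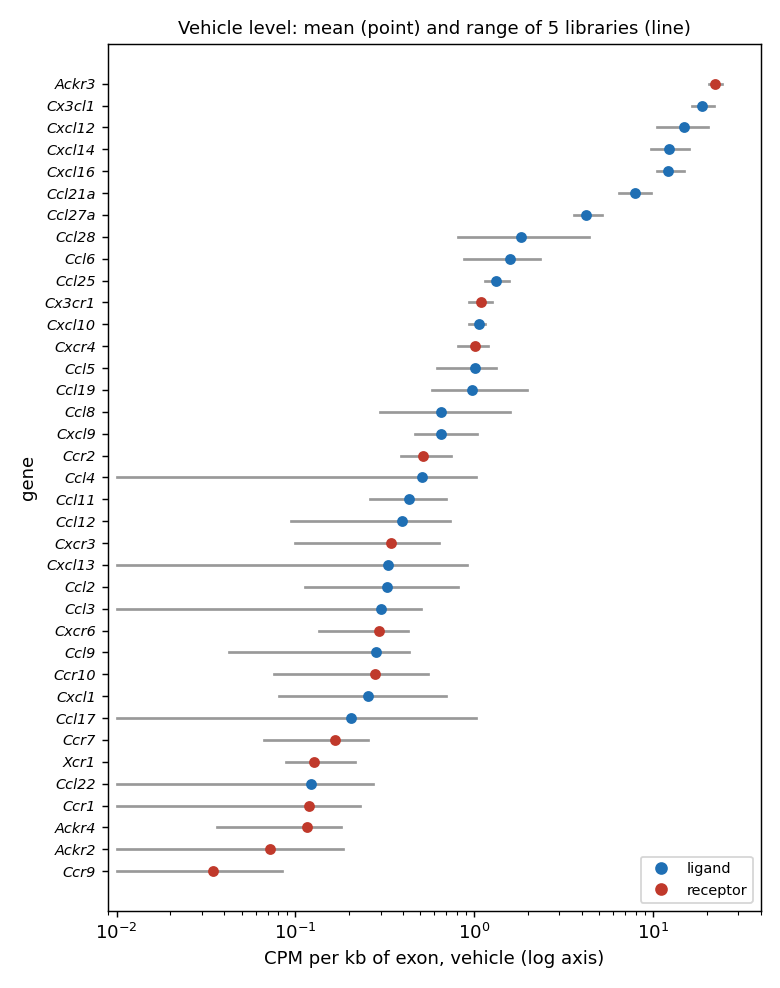
Level of 37 of the 38 tested chemokine and receptor genes in vehicle kidneys, in CPM per kb of exon on a log axis: points are means and lines span the lowest to the highest of 5 libraries, and a line that reaches the left edge includes a library at 0. Ackr3, Cx3cl1, Cxcl12, Cxcl14 and Cxcl16 lie above 10 CPM per kb, and most signalling receptors lie under 1.

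Every chemokine or receptor gene called against vehicle with the edgeR settings used here was higher. The first were the interferon-inducible ligands Cxcl9 and Cxcl10, and most calls came at 10 and 30 µg/kg. No member was called at 0.03, 0.1 or 0.3 µg/kg by edgeR, where 0%, 0% and 0.00577% of all genes were called. In those contrasts 3, 4 and 0 of the 38 tested members had an unadjusted p under 0.05, and DESeq2 called 0 members as well. Cxcl9 alone was called at 1 µg/kg, against 0.507% of all genes called higher and 0.513% called either way. Cxcl9 and Cxcl10 were called at 3 µg/kg, against 1.03% of all genes. At 10 µg/kg 13 members were called higher and 0 lower, which is 34.2% of the tested members beside 3.82% of all genes called higher and 4.82% called either way. For 30 µg/kg the numbers were 11 higher and 0 lower, or 28.9% beside 8.39% of all genes called higher and 7.55% called lower. DESeq2 and a fit with the title number as a covariate each called 2 members lower there (Ccl28 and Ccl21a), and the fit without robust estimation 1 (Ccl28). Over dose rank (vehicle as 0 and the highest dose as 7) 16 members had a rising trend and 0 a falling one, or 42.1% beside 11% of all genes called rising, 8.84% called falling and 19.8% called either way. Without replicate 3 at 30 µg/kg, Cxcl12 and Cxcl16 were called in the trend as well. Without vehicle replicates 1 and 2, 3 members were called at 3 µg/kg and 10 at 10 µg/kg, all higher, 10 higher and 1 lower (Ccl28) at 30 µg/kg, and 16 rising in the trend. At 10 µg/kg Ccl5, Ccl19, Ccr1, Cx3cr1 and Cxcl12 then lost their calls, and Ccl6 and Cxcl16 gained one.

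The median log2 fold change of the 38 tested members was 0.69 at 10 µg/kg and 0.44 at 30 µg/kg, beside medians of -0.01 and 0.01 over all genes. Only 21 of the 38 exceeded the detection level of 0.566 CPM by their vehicle mean. A member that is high in 1 group only could pass through that group, so these medians and counts describe the tested members and are not evidence for all 60. Of the 17 members called at any dose or in the trend, 11 exceeded that level by their vehicle mean. All 5 libraries lay above all 5 vehicle libraries for 12 tested members at 10 µg/kg and for 4 at 30 µg/kg, whereas 4.32% and 3.58% of all genes did so.

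**Figure D2:**
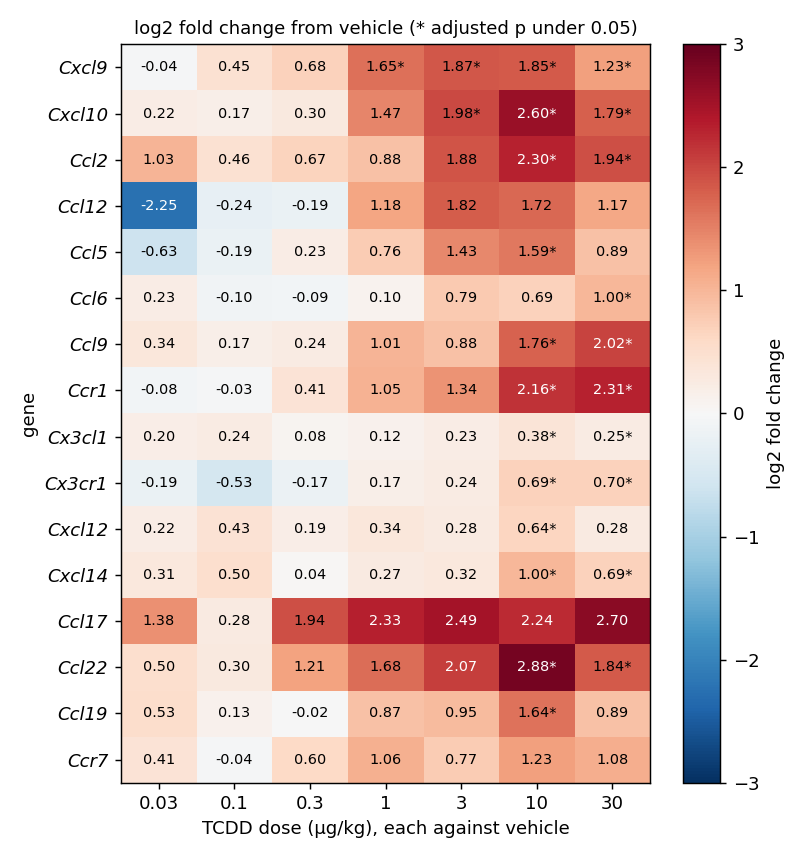
Log2 fold change from vehicle of 16 of the 17 called members (rows, by role) at the 7 TCDD doses (columns), with asterisks where the edgeR adjusted p was under 0.05. Cxcl9 is called from 1 µg/kg and Cxcl10 from 3 µg/kg, most others are called only at 10 or 30 µg/kg, and Cxcl10 goes from 2.60 at 10 µg/kg to 1.79 at 30 µg/kg.

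CXCR3 is the receptor of activated T cells and natural killer cells, and its ligands CXCL9, CXCL10 and CXCL11 are induced by interferons. Cxcl9 and Cxcl10 lie beside each other on mouse chromosome 5, and both were the earliest members called here. The 250 bases before the RefSeq start sites (GRCm38.p6) of these 2 genes are printed because these were the earliest called. Those of Ccl19 and Cxcl14 follow because, with Cxcl10, they are the only promoters among the called members to hold an interferon-stimulated response element. Capitals mark matches on either strand to 4 motifs: the interferon-stimulated response element (ISRE, GAAA and GAAA with any 2 bases between), the gamma-activated site (GAS, TTCNNNGAA), the kappaB site (GGGA and TTCC with any 2 bases between) and the dioxin response element core (GCGTG). All 4 genes lie on the minus strand, at chr5:92348890-92349139 (Cxcl10), chr5:92328080-92328329 (Cxcl9), chr4:42756366-42756615 (Ccl19) and chr13:56296552-56296801 (Cxcl14).
Cxcl10: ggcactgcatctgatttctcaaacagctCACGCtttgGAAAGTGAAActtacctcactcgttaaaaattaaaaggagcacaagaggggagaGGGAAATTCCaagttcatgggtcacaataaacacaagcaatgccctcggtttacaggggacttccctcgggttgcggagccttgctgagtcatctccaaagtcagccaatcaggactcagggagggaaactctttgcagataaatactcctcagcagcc
Cxcl9: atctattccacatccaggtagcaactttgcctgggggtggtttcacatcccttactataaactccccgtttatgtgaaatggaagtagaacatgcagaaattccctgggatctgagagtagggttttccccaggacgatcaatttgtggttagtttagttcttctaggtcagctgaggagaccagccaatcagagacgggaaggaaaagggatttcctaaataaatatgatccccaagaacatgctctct
Ccl19: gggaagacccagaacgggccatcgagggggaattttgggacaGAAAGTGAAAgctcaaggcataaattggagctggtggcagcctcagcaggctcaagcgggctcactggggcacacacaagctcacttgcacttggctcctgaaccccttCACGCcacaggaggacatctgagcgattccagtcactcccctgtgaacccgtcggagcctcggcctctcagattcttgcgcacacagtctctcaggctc
Cxcl14: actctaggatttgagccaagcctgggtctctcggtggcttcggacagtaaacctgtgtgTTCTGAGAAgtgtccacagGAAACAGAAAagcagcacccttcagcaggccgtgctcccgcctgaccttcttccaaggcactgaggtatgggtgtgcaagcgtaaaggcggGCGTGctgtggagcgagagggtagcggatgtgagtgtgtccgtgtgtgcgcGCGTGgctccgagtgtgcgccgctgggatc

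In the Cxcl10 sequence the ISRE match spans bases -213 to -204 from the start, the kappaB match -159 to -150 and the dioxin response element core -222 to -218. The Cxcl9 window holds no match to these 4 patterns, which says only that these letters are not in it. Ccl19 has an ISRE match at -208 to -199, and Cxcl14 has one at -172 to -163 beside a GAS match at -191 to -183. No match overlapped another in the 4 windows. Promoters were found for 46 of the 60 members and 13 of the 17 called ones. The ISRE pattern occurred in 3.46% of all 27025 genes in the promoter table, in 6.52% of members and in 23.1% of called members (3 of 13). The kappaB pattern occurred in 1.36% of all genes and in 13.0% of members: Ccl1, Ccr3, Cxcl1, Cxcl10, Cxcl2 and Cxcl3, of which only Cxcl10 was called. The GAS pattern occurred in 8.13% of all genes and 15.4% of called members, and the dioxin response element core in 30.9% and 38.5%. A match is a description of the letters, not a bound site.

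Cxcl10 (ENSMUSG00000034855) measured 2.42, 2.58, 2.29, 2.56 and 2.10 CPM in the 5 vehicle libraries, with a mean of 2.39 ± 0.203 (SD, n = 5). Its means were 2.75 and 2.92 CPM at 0.03 and 0.3 µg/kg. At 1 µg/kg the libraries held 8.25, 8.10, 4.57, 5.98 and 6.22 CPM. All 5 lay above every vehicle library, yet the change of 1.47 (SE 0.38) was not called (edgeR adjusted p = 0.0742). It was called at 3 µg/kg (1.98, adjusted p = 0.00195) and at 10 µg/kg (2.60, SE 0.38, adjusted p = 1.05e-05), where the libraries ran from 10.5 to 18.5 CPM. This 6.06-fold rise was the second largest linear fold called among members at any dose, after Ccl22. At 30 µg/kg the libraries split, with 17.5, 12.6, 1.76, 2.97 and 6.37 CPM and a mean of 8.24 ± 6.66. Replicate 3 lay below all vehicle libraries and replicate 1 above 4 of the 5 libraries at 10 µg/kg. The call at 30 µg/kg (1.79, adjusted p = 0.000849) held without replicate 3 (2.03, adjusted p = 3.14e-05) and was lost in a fit of only the 2 groups (adjusted p = 0.0808). In the annotation 5.9% of the Cxcl10 exon bases are shared with Art3 on the opposite strand.

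Cxcl9 (ENSMUSG00000029417) measured 2.19, 3.14, 1.47, 1.64 and 1.42 CPM in vehicle. At 1 µg/kg it measured 5.50, 7.35, 3.69, 7.43 and 6.97 CPM. The groups did not overlap, and the change of 1.65 (SE 0.35) was called (edgeR adjusted p = 0.00746), a 3.13-fold rise. Means of 7.24 and 7.11 CPM at 3 and 10 µg/kg stood beside 6.19 CPM at 1 µg/kg, while the Cxcl10 mean was highest at 10 µg/kg. Values of 4.43, 8.98, 0.881, 3.42 and 5.38 CPM followed at 30 µg/kg. Replicate 3 again lay below every vehicle library. The change at 30 µg/kg (1.23, adjusted p = 0.0104) became 1.48 without replicate 3 (adjusted p = 0.000394) and lost its call without replicate 2 (adjusted p = 0.0731) and in a fit of only the 2 groups (adjusted p = 0.131).

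Cxcl11, the third ligand, is annotated as a polymorphic pseudogene in GENCODE M21 and so is not a member. It measured 0.506 ± 0.499 CPM in vehicle and 0.948 ± 0.302 at 10 µg/kg (SD, n = 5 each), a difference of 0.88 that was not called (edgeR adjusted p = 0.521). Cxcr3 itself was not called higher. It measured 1.09, 0.709, 0.173, 0.591 and 0.396 CPM in vehicle and 0.0964, 0.432, 0, 0.392 and 0.0981 CPM at 10 µg/kg. These groups overlapped and the difference of -1.45 (SE 0.69) was not called (adjusted p = 0.289).

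**Figure D3:**
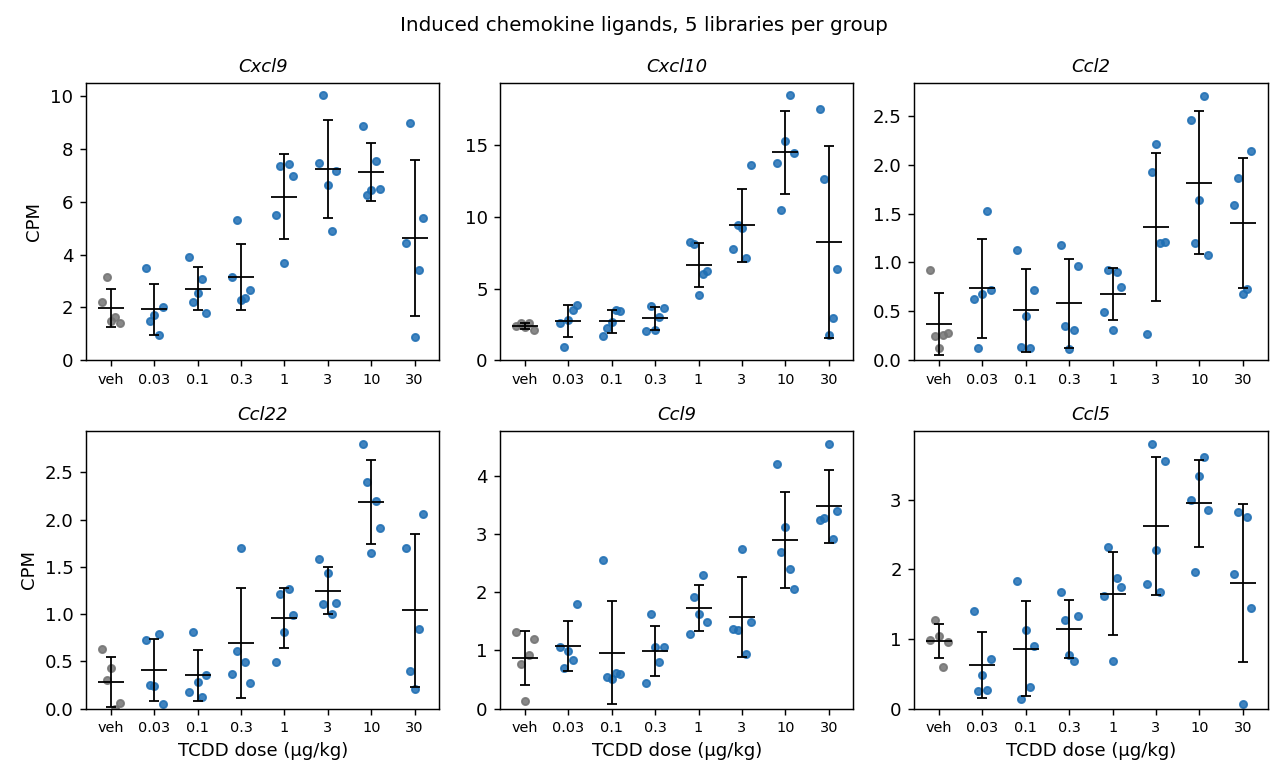
CPM of 6 called ligands in each library (points) by TCDD dose, with the group mean and SD as bars, and vehicle in grey. Cxcl9 and Cxcl10 libraries do not overlap vehicle at 1 µg/kg, while at 30 µg/kg single libraries of Cxcl10 span 1.76 to 17.5 CPM.

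Ligands and receptors of monocytes and macrophages were the largest group of tested members. The group also takes in the eosinophil genes Ccl11, Ccl24, Ccl26 and Ccr3, of which only Ccl11 was tested. Of 17 in this group 12 were tested, and 5 were called higher at 10 µg/kg, 5 at 30 µg/kg and 7 in the trend, beside 3.82%, 8.39% and 11% of all genes. Their median log2 fold change was 1.53 at 10 µg/kg, beside -0.01 over all genes. The summed level of the 17 was 11.9 ± 3.72 CPM in vehicle, 27.9 ± 4.05 at 10 µg/kg and 23.7 ± 3.49 at 30 µg/kg (SD, n = 5 each), with no overlap between vehicle and either dose.

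Ccl2, the main ligand of CCR2 and attractant of inflammatory monocytes, measured 0.921, 0.253, 0.130, 0.263 and 0.283 CPM in vehicle. At 10 µg/kg it measured 2.46, 1.20, 1.64, 2.71 and 1.08 CPM. The lowest exposed library lay above the highest vehicle library, and the 4.93-fold rise was called (2.30, SE 0.59, edgeR adjusted p = 0.011). It was also called at 30 µg/kg (1.94, adjusted p = 0.0183), where replicates 3 and 4 lay within the vehicle range. Without vehicle replicate 3 both calls were missed (adjusted p = 0.0501 and 0.0675), and without replicate 5 at 30 µg/kg the call there was missed (adjusted p = 0.0599). Ccl12, a related CCR2 ligand of the mouse, was called in the trend only (0.38 per dose rank, adjusted p = 0.00284). Its vehicle mean of 0.212 CPM compared with 0.752 at 3 µg/kg and 0.702 at 10 µg/kg.

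Ccl9 and Ccl6 bind CCR1, and both had their highest mean at 30 µg/kg. Ccl9 measured 1.32, 0.759, 0.130, 0.920 and 1.19 CPM in vehicle and 3.24, 3.28, 4.54, 2.92 and 3.40 CPM at 30 µg/kg. The groups were wholly apart, a 4.06-fold rise (2.02, SE 0.40, edgeR adjusted p = 0.000293). Ccl6 was the most abundant of these ligands in vehicle, at 2.86 ± 1.23 CPM, and reached 5.74 ± 1.98 at 30 µg/kg (1.00, adjusted p = 0.00652), with 4 of 5 libraries above all vehicle libraries. A fit of only these 2 groups did not call it (adjusted p = 0.0731). Ccl5, a ligand of CCR1 and CCR3 among others, rose from 0.967 ± 0.242 to 2.95 ± 0.625 CPM at 10 µg/kg, with no overlap (1.59, SE 0.48, adjusted p = 0.0406). That call was near the threshold: it held in only 1 of the 10 fits with one library dropped, where adjusted p-values ran from 0.0435 to 0.107.

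Ccr1, the receptor of CCL9 and CCL6, rose as well. It measured 0, 0.456, 0.647, 0.197 and 0.396 CPM in vehicle and 1.14, 1.58, 2.10, 1.79 and 2.18 CPM at 30 µg/kg. No exposed library overlapped a vehicle library, and the rise was 4.96-fold (2.31, SE 0.52, edgeR adjusted p = 0.00115). At 10 µg/kg it was 2.16 (adjusted p = 0.00557).

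Ccr2, the receptor of CCL2, had another course. Its mean was 3.50 ± 0.908 CPM in vehicle, 6.43 at 3 µg/kg, 5.30 ± 1.94 at 10 µg/kg and 2.83 ± 1.45 at 30 µg/kg. None of these was called against vehicle (edgeR adjusted p = 0.159, 0.286 and 0.536). The step from 10 to 30 µg/kg was -0.90 (SE 0.29, adjusted p = 0.0767). That step was called with DESeq2, with the title number covariate, in sense-strand counts, and without replicate 1 or 2 at 30 µg/kg or replicate 4 at 10 µg/kg. Ccl8 also had its lowest mean at 30 µg/kg, 0.103 CPM beside 0.335 in vehicle and 1.28 at 3 µg/kg, and its step from 10 to 30 µg/kg of -2.50 was not called (adjusted p = 0.0703). Without replicate 5 at 30 µg/kg Ccl8 was called lower there, against vehicle and against 10 µg/kg. Neither Ccr2 nor Ccl8 was called in the trend with all libraries, though both slopes were positive. Both were called in the trend without the 30 µg/kg group. Ccl8 and the values of Ccl28 below were chosen after their values were seen. Ccl3, Ccl4 and Ccl11, attractants of monocytes or eosinophils, were tested and not called in any contrast. Ccl7 did not pass the filter on low counts: it had 0 counts in vehicle, 15, 1, 1, 13 and 12 at the doses from 0.03 to 3 µg/kg, 37 at 10 µg/kg and 32 at 30 µg/kg, summed over 5 libraries.

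**Figure D4:**
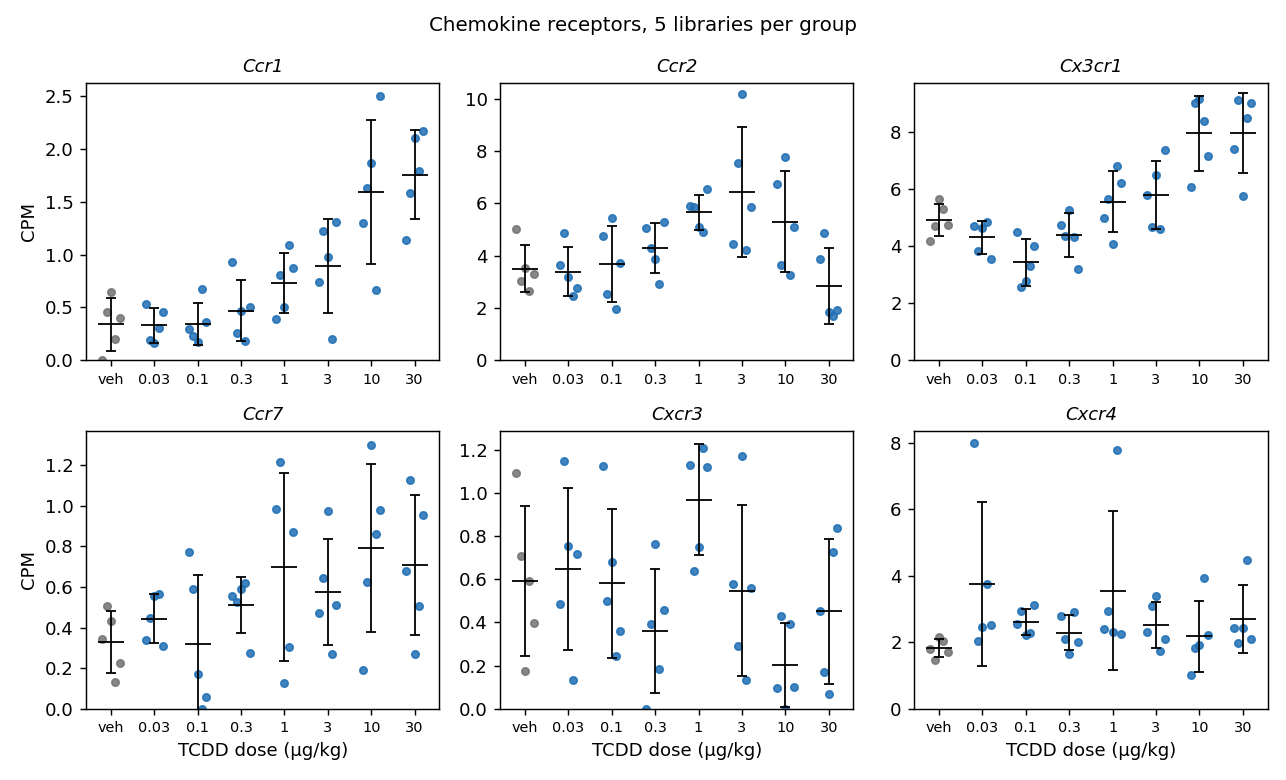
CPM of 6 of the chemokine receptors in each library (points) by TCDD dose, with group mean and SD as bars, and vehicle in grey. Ccr1 and Cx3cr1 are above vehicle at 10 and 30 µg/kg, Ccr2 has its highest mean (6.43 CPM) at 3 µg/kg, and Cxcr4 varies by single libraries.

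Most markers of macrophages, though not all, were called higher. The 10 macrophage markers (Adgre1, Csf1r, Cd68, C1qa, C1qb, C1qc, Lyz2, Mrc1, Cd14 and Fcgr1) summed to 92.9 to 153 CPM in vehicle, 214 to 263 at 10 µg/kg and 190 to 250 CPM at 30 µg/kg. Of the 10, 2 were called higher at 1 µg/kg, 5 at 3 µg/kg, 7 at 10 µg/kg and 8 at 30 µg/kg. The shares of all genes called higher at these doses were 0.507%, 1.03%, 3.82% and 8.39%. At 1 µg/kg the 10 markers summed to 157 to 244 CPM, above every vehicle library. Csf1r, the receptor of a macrophage growth factor, was not called (0.36 at 10 µg/kg and -0.13 at 30 µg/kg, edgeR adjusted p = 0.419 and 0.745). C1qa, a complement subunit made by macrophages, changed by 1.36 at 10 µg/kg (edgeR adjusted p = 5.2e-08). Dendritic cell markers summed to 31.0 ± 4.21 CPM in vehicle, 48.7 ± 3.19 at 10 µg/kg and 40.4 ± 4.74 at 30 µg/kg. Of the 6, 1 was called higher at 1 µg/kg, 2 at 3 µg/kg, 4 at 10 µg/kg and 2 at 30 µg/kg. Itgax, an integrin of these cells, changed by 1.51 at 10 µg/kg and 0.88 at 30 µg/kg (edgeR adjusted p = 0.000109 and 0.0197). Flt3 and Cd209a, also markers of these cells, differed by -0.30 and -0.42 at 30 µg/kg and were not called. The part of these cells in the chemokine changes was not tested.

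No lymphocyte marker was called at any dose against vehicle, and some were called in the trend. The 8 T cell markers summed to 7.30 ± 1.71 CPM in vehicle, 8.75 ± 1.49 at 10 µg/kg and 7.15 ± 1.93 at 30 µg/kg, and none was called at either dose. Of the 8, only Cd4 and Lck were called in the trend (0.17 and 0.14 per dose rank, edgeR adjusted p = 0.0159 and 0.0194), beside 11% of all genes called rising. The 6 natural killer markers summed to 1.17 ± 0.335 CPM in vehicle and 3.65 ± 1.62 at 10 µg/kg. Their sum ran from 0.679 to 1.60 CPM in vehicle, 2.00 to 3.61 at 1 µg/kg and 1.91 to 4.69 at 30 µg/kg. It did not overlap vehicle from 1 µg/kg upward. Of the 6, 4 were tested, and 3 were called, in the trend only, beside 11% of all genes called rising. These were Prf1, Klrd1 and Nkg7 (edgeR adjusted p = 0.00487, 0.0087 and 0.0422). B cell markers summed to 5.13 ± 1.22 and 5.45 ± 0.509 CPM, with 0 of 5 called at any dose or in the trend. Neutrophil markers summed to 1.68 ± 0.424 CPM in vehicle and 3.78 ± 1.17 at 10 µg/kg, with Mpo at 0 in vehicle, 10 and 30 µg/kg. Of the 6 neutrophil markers 3 were tested. S100a9 and Csf3r were called in the trend (edgeR adjusted p = 0.00126 and 0.00157), beside 11% of all genes called rising. Endothelial markers summed to 299 ± 13.6, 427 ± 8.38 and 421 ± 24.7 CPM in vehicle, 10 and 30 µg/kg. Of the 6, 2 were called higher at 3 µg/kg, 5 at 10 µg/kg and 4 at 30 µg/kg, beside 1.03%, 3.82% and 8.39% of all genes. Fat markers summed to 91.5 ± 41.2, 79.0 ± 38.6 and 182 ± 80.0 CPM in vehicle, 10 and 30 µg/kg. Lep was lower at 30 µg/kg (-2.71, edgeR adjusted p = 0.0334). Adipoq, Plin1 and Cfd differed by 0.84, 0.64 and 1.19 at 30 µg/kg, and none was called. The parts of these cells in the chemokine values were not tested either.

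Fractalkine is made by kidney tubule and endothelial cells and holds CX3CR1-bearing macrophages in place. Both members of this pair rose, by less than Cxcl10 and Ccl2 at 10 µg/kg. Cx3cl1 measured 67.1, 71.7, 65.4, 85.9 and 78.4 CPM in vehicle and 84.7, 99.5, 97.0, 102 and 95.5 CPM at 10 µg/kg. Of the exposed libraries 4 lay above all vehicle libraries, and the 1.30-fold rise was called (0.38, SE 0.08, edgeR adjusted p = 0.00141). At 30 µg/kg the change was 0.25 (adjusted p = 0.0277), a call that held in 4 of the 10 fits leaving out 1 library (0.31 without replicate 3, adjusted p = 0.00546) and was lost, as was the trend, without vehicle replicates 1 and 2. Cx3cr1 measured 4.20, 4.71, 5.65, 5.32 and 4.76 CPM in vehicle and 6.07, 9.02, 9.17, 8.39 and 7.16 CPM at 10 µg/kg, with no overlap. The rise of 0.69 at 10 µg/kg and 0.70 at 30 µg/kg was called at both (adjusted p = 0.0109 and 0.00398). Xcr1, the receptor of cross-presenting dendritic cells, was not called (0.64 at 10 µg/kg, adjusted p = 0.716). Its ligand Xcl1 was too sparse to pass the filter on low counts, with 6 counts in vehicle and 40 at 10 µg/kg over 5 libraries each.

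**Figure D5:**
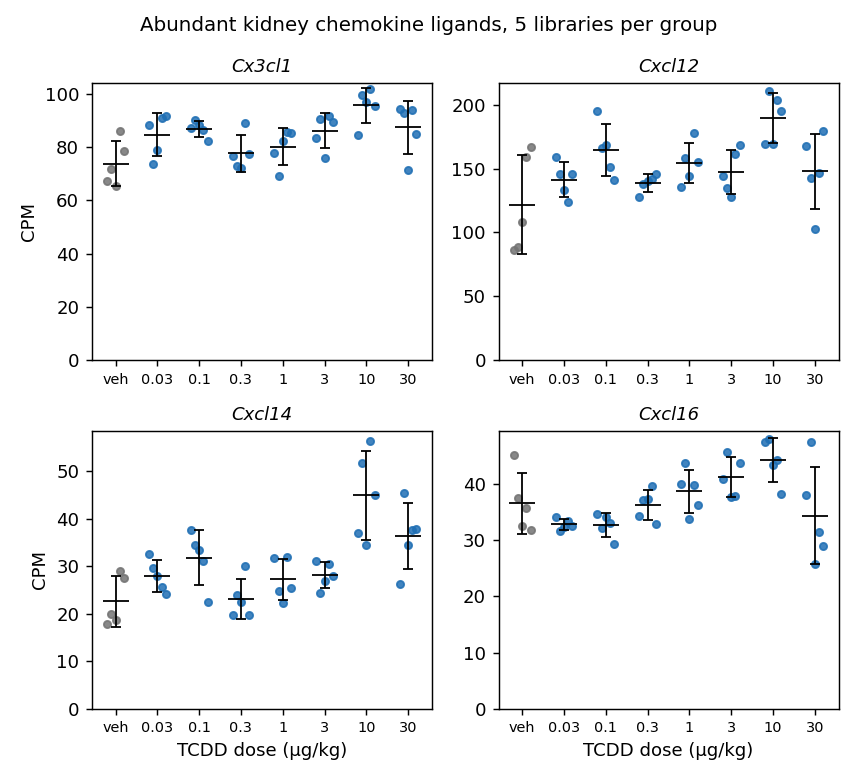
CPM of the 4 most abundant ligands in each library (points) by TCDD dose, with group mean and SD as bars, and vehicle in grey. Means are highest at 10 µg/kg for all 4, and vehicle libraries of Cxcl12 fall into a lower set (86.3 to 108 CPM) and a higher one (159 and 167 CPM).

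CXCL12 retains leukocytes and progenitors through CXCR4, and CXCL14 is a constitutive epithelial ligand. Cxcl12 was called at 10 µg/kg and at no other dose. It measured 86.3, 88.8, 108, 159 and 167 CPM in vehicle and 169, 211, 169, 204 and 195 CPM at 10 µg/kg. The groups were apart, but by little against the highest vehicle library (0.64, SE 0.14, edgeR adjusted p = 0.00327). A fit of only these 2 groups did not call it (adjusted p = 0.118). Cxcl14 measured 17.7, 20.0, 18.7, 29.0 and 27.6 CPM in vehicle and 37.1, 51.8, 34.4, 56.5 and 45.0 CPM at 10 µg/kg, a 2.00-fold rise with no overlap (1.00, SE 0.15, adjusted p = 2.16e-05). At 30 µg/kg it was 0.69 (adjusted p = 0.00145).

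Vehicle replicates 4 and 5, high for both genes, carry title numbers of 28 and over, and vehicle replicates 1 to 3 carry lower ones. The labels do not say what the 2 runs of numbers stand for. With the run as a covariate, Cxcl12 at 10 µg/kg was 0.66 (edgeR adjusted p = 0.000856) and Cxcl14 1.00 (adjusted p = 1.9e-05), and the Cxcl12 trend passed the threshold (adjusted p = 0.0401, beside 0.063 without the covariate). The Cxcl12 trend was also called with DESeq2, without robust estimation and without the 30 µg/kg group. It was called too without vehicle replicate 4 or 5, replicate 1 at 0.1 µg/kg or replicate 3 at 30 µg/kg.

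The 2 receptors of CXCL12 were not called. Cxcr4 measured 1.79, 1.47, 2.16, 2.04 and 1.70 CPM in vehicle and means of 3.54 at 1 µg/kg and 2.18 at 10 µg/kg. The highest group means rested on single libraries, such as 7.79 CPM for replicate 4 at 1 µg/kg beside 2.24 to 2.95 in the other 4. Ackr3 measured 74.5 ± 5.78 CPM in vehicle, 84.2 ± 6.48 at 10 µg/kg and 74.8 ± 8.30 at 30 µg/kg (SD, n = 5 each), a difference of 0.17 at 10 µg/kg (SE 0.14, edgeR adjusted p = 0.619). Cxcl16, a transmembrane ligand of CXCR6, measured 36.6 ± 5.40 in vehicle, 44.3 ± 3.97 at 10 µg/kg and 34.4 ± 8.62 CPM at 30 µg/kg, and was not called against vehicle with all libraries. Without vehicle replicate 1, or without vehicle replicates 1 and 2, it was called higher at 10 µg/kg and in the trend. Its trend was also called in sense-strand counts, without the 30 µg/kg group, and without replicate 3, 4 or 5 at 30 µg/kg. Of the Cxcl16 exon bases 18.3% are shared with Zmynd15 on the opposite strand, so the sense-strand counts may hold reads of that gene. Cxcr6 was not called either (0.73 at 10 µg/kg, adjusted p = 0.58), and Cxcl13, the B cell attractant, stayed between 0.098 and 0.457 CPM by group mean.

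Of 10 tested homing genes 2 were called at 10 µg/kg, 1 at 30 µg/kg and 4 in the trend, all higher, beside 3.82%, 8.39% and 11% of all genes. The count at 30 µg/kg is near that background. Ccl22, a ligand of CCR4 made by dendritic cells and macrophages, gave the largest fold called in the family. It measured 0.633, 0.304, 0.432, 0 and 0.0566 CPM in vehicle and 2.80, 2.40, 1.64, 2.20 and 1.91 CPM at 10 µg/kg. The groups were far apart, a 7.35-fold rise (2.88, SE 0.60, edgeR adjusted p = 0.00112). At 30 µg/kg the libraries spread from 0.203 to 2.06 CPM and the call (1.84, adjusted p = 0.0297) held in 5 of 10 fits leaving out 1 library, and was lost without vehicle replicate 2, 4 or 5 or replicate 1 or 5 at 30 µg/kg (highest adjusted p = 0.143). Ccl17, the other CCR4 ligand, had 0 counts in 4 of 5 vehicle libraries. Its trend was called (0.32 per dose rank, adjusted p = 0.0176), and the difference, with a mean of 0.635 CPM at 30 µg/kg, was not (adjusted p = 0.0572, and 0.0322 without replicate 3). DESeq2 called it at 30 µg/kg, and without vehicle replicate 4 edgeR called it at 1, 3, 10 and 30 µg/kg. The trend call was lost without replicate 2 at 30 µg/kg and without that whole group. Ccr4 had 0 counts in vehicle, 1 at 10 µg/kg and 1 at 30 µg/kg, and was not tested.

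Ccl19 and CCL21 guide CCR7-bearing dendritic cells and T cells toward lymphoid tissue. Ccl19 measured 0.576, 0.506, 0.691, 1.71 and 0.736 CPM in vehicle and 2.65, 4.13, 1.70, 2.74 and 1.77 CPM at 10 µg/kg. Only replicate 3 at 10 µg/kg fell within the vehicle range, and the rise was called (1.64, SE 0.43, edgeR adjusted p = 0.0133). It was not called at 30 µg/kg (0.89, adjusted p = 0.174), and the call at 10 µg/kg was lost without vehicle replicate 2 or 10 µg/kg replicate 2 (highest adjusted p = 0.0741). Ccl19 has near-identical pseudogene copies, so its counts are uncertain. Ccr7 was called in the trend alone (0.17 per dose rank, adjusted p = 0.0431), with means of 0.328 CPM in vehicle and 0.792 at 10 µg/kg. That call was lost in 15 of the alternatives, among them no filter, no 30 µg/kg group, and vehicle replicate 1, 4 or 5 left out. Ccl21a, chosen after its values were seen, measured 6.90 ± 1.28 CPM in vehicle and 4.45 ± 2.50 at 30 µg/kg (-0.63, adjusted p = 0.0588), and was also called lower without replicate 2 at 30 µg/kg.

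The epithelial homing ligands were not called at any dose with all libraries and the edgeR settings used here. Ccl25, a ligand of CCR9, measured 9.84 ± 1.12 CPM in vehicle and 7.81 ± 1.41 at 30 µg/kg (-0.33, edgeR adjusted p = 0.122), and Ccl27a, a ligand of CCR10, 10.1 ± 1.41 and 9.43 ± 1.36 (-0.10, adjusted p = 0.711). Ccl28, which also binds CCR10, was the most variable of the abundant members, at 3.92, 4.86, 21.2, 8.61 and 5.55 CPM in vehicle. It measured 4.99, 3.39, 0.407, 1.91 and 2.79 CPM at 30 µg/kg. The groups overlapped and the difference of -1.70 (SE 0.61) missed the threshold (adjusted p = 0.0528). Besides DESeq2, the covariate and the fit without robust estimation, leaving out vehicle replicate 1, 2 or 5 or replicate 1 at 30 µg/kg called Ccl28 lower at 30 µg/kg. Ccl25 was called lower there without replicate 1 at 30 µg/kg. Ccr9 and Ccr10 were tested and not called.

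The neutrophil axis lay near the detection limit. Its ligands carry a glutamate-leucine-arginine motif and act through CXCR1 and CXCR2. Of the 7 members only Cxcl1 was tested, at 0.476 ± 0.473 CPM in vehicle and 0.433 ± 0.255 at 10 µg/kg (-0.12, edgeR adjusted p = 0.965). Cxcr2 had 4 counts in vehicle, 25 at 10 µg/kg and 7 at 30 µg/kg over 5 libraries each, below the level for a test. The summed level of the 7 genes was 0.631 ± 0.512, 0.751 ± 0.313 and 0.864 ± 0.320 CPM in vehicle, 10 and 30 µg/kg. Of the other atypical receptors, Ackr2 and Ackr4 were tested and not called, and Ackr1 was not tested.

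In all, 22 members were not tested. Ccl21b, Ccl26 and Ccl27b had no count in any library. The highest total among the 22 was 114 counts over 40 libraries, and their highest group mean was 0.388 CPM, for Xcl1 at 10 µg/kg. The others are Ackr1, Ccl1, Ccl20, Ccl24, Ccl7, Ccr1l1, Ccr3, Ccr4, Ccr6, Ccr8, Cxcl15, Cxcl17, Cxcl2, Cxcl3, Cxcl5, Cxcr1, Cxcr2 and Cxcr5. In the fit with no filter on low counts, none of those with a count was called in any contrast or in the trend. Their few counts limit what such a fit can detect.

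Between 0.3 and 1 µg/kg, where the first call against vehicle appeared, the direct contrast called 0 members by edgeR, and 0.213% of all genes were called. In that contrast 5 of the 38 tested members had an unadjusted p under 0.05, and DESeq2 called 0. Cxcl10 changed by 1.17 (SE 0.37) and all 5 libraries at 1 µg/kg lay above all 5 at 0.3 µg/kg, but the adjusted p was 0.5. A fit of only these 2 groups did call Cxcl10. Cxcl9 changed by 0.96 (adjusted p = 0.672).

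Between 10 and 30 µg/kg, 1 member was called, Cxcl16, which was lower at 30 µg/kg (-0.37, SE 0.10, edgeR adjusted p = 0.0421), beside 1.52% of all genes called lower and 2.7% called either way. Cxcl16 measured 47.6, 48.1, 43.5, 44.3 and 38.2 CPM at 10 µg/kg and 38.0, 47.5, 25.8, 31.5 and 28.9 CPM at 30 µg/kg. The groups overlapped through replicate 2 at 30 µg/kg, and without replicate 3 the call was lost (-0.29, adjusted p = 0.234). It held in 3 of the 10 fits leaving out 1 library of either group. Of the 17 called members 12 had a difference below 0 in this step, from -1.04 (Ccl22) up to 0.46 (Ccl17), and the highest group mean fell at 10 µg/kg for 10 of the 17, at 30 µg/kg for 5 and at 3 µg/kg for 2. Since the calls at 10 µg/kg helped to choose these 17, that order is a description. Without replicate 3 the 30 versus 10 µg/kg differences of Cxcl10 and Cxcl9 were -0.56 and -0.36 (adjusted p = 0.546 and 0.745), beside -0.81 and -0.61 with it.

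Genes that carry out chemokine signalling were mostly higher where called. Of 36 tested genes downstream of the receptors, 17 were called higher and 1 lower in the trend, beside 11% and 8.84% of all genes. At 10 µg/kg 9 were higher and 0 lower, beside 3.82% of all genes called higher, with a median of 0.41 beside -0.01 over all genes. Plcb2, a phospholipase of leukocytes activated by G proteins, changed by 2.17 at 10 µg/kg (SE 0.29, edgeR adjusted p = 8.54e-07). Itgb2, the common chain of leukocyte integrins, changed by 1.27 (adjusted p = 1.64e-05). Both are leukocyte genes, and the part of cell content in their change was not tested.

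Of 18 tested genes that induce chemokines (interferon, tumour necrosis factor, interleukin-1 and NF-kappaB signalling), 13 were called higher in the trend and 0 lower, and 9 were higher at each of 10 and 30 µg/kg. The shares of all genes called higher were 11% in the trend, 3.82% at 10 µg/kg and 8.39% at 30 µg/kg. Irf7, an interferon-induced transcription factor, changed by 1.81 at 10 µg/kg and 1.34 at 30 µg/kg (edgeR adjusted p = 6.64e-09 and 1.68e-06). Il1r1 changed by 0.58 and 0.63 (adjusted p = 0.000535 and 9.16e-05), and Ifngr1, a chain of the interferon-gamma receptor, by 0.31 and 0.61 (adjusted p = 0.033 and 3.48e-06). Of 7 proteases that shed or cleave chemokines, 3 were called higher in the trend (Mmp14, Mmp2 and Dpp4), beside 11% of all genes, and 1 each at 10 and 30 µg/kg, near the 8.39% of all genes at 30 µg/kg. Mmp14 changed by 0.59 at 30 µg/kg (adjusted p = 0.00133) and Mmp2 by 0.66 at 10 µg/kg (adjusted p = 0.0463), while Dpp4, which clips the ends of CXCL10 and CXCL12, was called in the trend only (0.02 per dose rank, adjusted p = 0.0404). Pf4, Ppbp and Ccrl2, family genes outside the symbol rule, were not called at 10 or 30 µg/kg or in the trend.

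When the second count column, which keeps reads of 1 strand, was used, 9 of the 13 members called at 10 µg/kg passed. Ccl2, Ccl5, Ccl9 and Ccl19 did not (edgeR adjusted p = 0.127, 0.0512, 0.235 and 0.100). That column holds 56.0% of the counts summed over all genes. For Ccl2, Ccl5, Ccl9 and Ccl19 it holds 52.3%, 48.6%, 47.8% and 53.4%, so they were tested on fewer counts. Such shares mean that the column did not separate sense reads from the others. This alternative is therefore a test on fewer counts and not a check of strand.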

How the data were processed

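Gene counts per library were deposited by the authors, 1 file for each of 40 kidney libraries, as whole numbers not normalized. Per the submitters' processing notes, FastQC 0.11.7, Trimmomatic 0.39, STAR 2.7.3a and DESeq2 were used, and the builds GRCm39 and mm10 are listed with no role. The annotation is not given in the sources used here. The unstranded counts were used, and the rows of unmapped, multimapping, unassigned and ambiguous reads were left out (7.0% to 9.7% of reads multimapped). Names, biotypes and exon lengths came from GENCODE M21, which named 52083 of 55359 identifiers. No batch or preparation date is given in the labels. Replicate numbers follow accession order and pair nothing.

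Counts were filtered (filterByExpr by group), scaled (TMM) and fitted over all 40 libraries and 8 groups with edgeR 4.0.16 (limma 3.58.1, R 4.3.3), with robust quasi-likelihood F-tests. Contrasts were each dose against vehicle, 1 against 0.3, 30 against 10 µg/kg and a trend over dose rank. The fit was tested on simulated counts. Levels are CPM over TMM-scaled library sizes, and means are given with SD. Alternatives were DESeq2 1.42.0, RLE scaling, no filter, the sense-strand column, non-robust fits, a title number covariate, fits of only the groups compared, each library left out and, chosen after seeing the data, vehicle replicates 1 and 2 both left out. The p-values measure the spread between labelled animals.

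Members called at any dose or in the trend are named with values, as are 15 genes of the main ligand and receptor pairs and the 3 genes of each other list with the lowest trend p. The members and all lists were chosen with earlier results of these data known. Promoter sequences are RefSeq's (GRCm38.p6), searched over 250 bases before each start. Values of 2 genes are not reported here, though counts over lists and members include them. A deposited table of transformed values was not used.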

Additional observations from a re-analysis of the deposited data

Results flagged for a closer look

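In 192 groups of 5 libraries, 17 had a highest or lowest library whose gap to the nearest other exceeded 0.71 of the group's range. Chance gives about 10 if the values are independent and normally distributed. Most of the 17 lay in genes with few counts, for which that number is not a reliable guide. In vehicle they were, for called members: Ccl17 replicate 4 at 0.526 CPM (the others at 0), Ccl19 replicate 4 at 1.71 (next 0.736) and Ccl2 replicate 1 at 0.921 (next 0.283). Cxcl1 replicate 5 of vehicle stood at 1.30 (next 0.432). At 0.3 µg/kg they were Ccl17 replicate 1 at 1.11 (next 0.306), Ccl22 replicate 3 at 1.70 (next 0.613), Cxcl9 replicate 2 at 5.30 (next 3.15) and Ccr7 replicate 5, low at 0.275 (next 0.525). Ccl9 replicate 1 at 0.1 µg/kg stood at 2.55 (next 0.615).

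Cxcr4 had a high library in 3 groups: 8.00 CPM in replicate 1 at 0.03 µg/kg (next 3.75), 7.79 in replicate 4 at 1 µg/kg (next 2.95) and 4.49 in replicate 4 at 30 µg/kg (next 2.44). Cxcr2, with a few counts per group, had 0.113 in replicate 3 at 0.1 µg/kg, 0.117 in replicate 3 at 0.3 µg/kg and 0.181 in replicate 4 at 1 µg/kg, each with the others at 0, and 0.280 in replicate 4 at 30 µg/kg (next 0.0677). Ackr3 was low in replicate 4 at 0.03 µg/kg, at 46.8 CPM (next 74.2).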

How the results depend on the processing

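Calls at 10 µg/kg numbered 11 to 13 with one library left out, those at 30 µg/kg 9 to 12, and trend calls 15 to 18. At 1 µg/kg there were 2 calls without robust estimation, with DESeq2 and with only the 2 groups fitted, and 1 to 2 with one library left out (2 without vehicle replicate 4). At 3 µg/kg DESeq2 made 4 calls, and leaving one library out gave 2 to 4 (4 without vehicle replicate 1). Fits of only the 2 groups made 5 calls at 30 µg/kg, where 25 members were tested, 1 between 0.3 and 1 µg/kg and 0 between 10 and 30 µg/kg. The single call between 10 and 30 µg/kg became 2 with the title number covariate, 3 with DESeq2 and 0 to 3 with one library left out: 0 without replicate 1, 2 or 3 at 10 µg/kg or 3 or 4 at 30 µg/kg, 2 without replicate 2 and 3 without replicate 1 at 30 µg/kg. The cause was not tested.

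Among 1504 alternative values of single genes, 1431 kept their direction and side of the threshold, 42 lost a call, 13 gained one and 18 reversed. The reversed ones were uncalled, and those of Cxcl11 and Cxcr3 were not all small. At 30 µg/kg Ackr3 ran from -0.06 to 0.042, Cxcr3 from -0.697 to 0.006 and Cxcl11 from -0.347 to 0.933 with one library left out, and Cxcl11 was -0.236 in sense-strand counts. The Cxcr4 trend ran from -0.027 to 0.033, and was 0.013 in sense-strand counts. Without vehicle replicates 1 and 2, an alternative chosen after seeing the data, Ackr3, Cxcl1, Cxcr3 and Cxcl11 were -0.057, -0.184, 0.288 and -0.419 at 30 µg/kg, and Cx3cl1 lost its call there and in the trend. No paired analysis was possible because replicate numbers follow accession order and mark no shared animal, litter or day. Depth limits the 22 untested members and those under 1 CPM.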

Other observations

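Ackr4, which removes CCL19, CCL21 and CCL25, had 460 unstranded counts over the 40 libraries and 34711 in the sense-strand column, or 75.5 times as many. In GENCODE M21, 8.9% of its exon bases are shared with Acad11 on the opposite strand. Over all genes the sense-strand column held 56.0% of the unstranded counts. For the abundant members Ackr3, Cx3cl1, Cxcl12 and Cxcl14, which share no exon bases, it held 49.6%, 49.3%, 51.0% and 50.6%. Such shares mean that the column did not separate sense reads from the others, so the 34711 counts cannot be read as Ackr4 transcripts. Their source was not tested. Among other members with exon bases shared with an opposite-strand gene, the sense-strand share was 79.8% for Ccr9, 69.2% for Cxcl16, 61.7% for Cxcl10, 56.2% for Ccl25, 52.5% for Cx3cr1 and 49.6% for Ccl27a, and it was 49.8% for Ccl22, which shares none. Cxcr5, which was not tested, had 103 unstranded and 633 sense-strand counts. The level of Ackr4 in vehicle was 0.627 CPM in unstranded counts.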
